A study of Mus musculus with 12 samples.

Results

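The interferon response and the MHC class I pathway were followed through 9 genes in the striatum of hemiparkinsonian mice treated with L-DOPA. The genes were chosen by name, as rows of the deposited transcript table, among 52169 gene symbols with 189364 transcripts. They comprised 3 transcription factors (*Irf1*, *Irf7* and *Stat2*), 3 interferon-induced effectors (*Ifit1*, *Ifit3* and *Ifitm3*), and the class I heavy chains *H2-K1* and *H2-D1* with their light chain *B2m*. Together the 9 genes have 68 transcripts in the table, and each gene is represented by the transcript with the highest mean level. All 9 passed the filter on low counts in every comparison. RNA from the lesioned and the unlesioned striatum was sequenced after acute or chronic L-DOPA, in 4 groups of 3 libraries. All mice were female C57BL/6J without a transgene. All received 6-hydroxydopamine (6-OHDA, a toxin of dopamine neurons; 3 µg per µl, 1 µl) in the right medial forebrain bundle after 25 mg/kg desipramine, which protects noradrenergic neurons, and recovered for 2 weeks. The acute groups then received a single dose of 10 mg/kg L-DOPA with 7.5 mg/kg benserazide, an inhibitor of L-DOPA conversion outside the brain, and the chronic groups the same doses daily for 9 days. Striatal punches were taken 1 hour after the last dose. Each group therefore carries L-DOPA, and the unlesioned striatum is the other hemisphere of a lesioned animal; no group without L-DOPA or without a lesion elsewhere in the brain was analysed here. The labels count 12 mice for the 12 libraries, whereas the study describes each mouse as its own control.

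Type I interferons act through the receptor subunits Ifnar1 and Ifnar2, whose kinases activate Stat2 among other factors. Stat2 joins Irf9 in a complex that binds the interferon-stimulated response element (ISRE) in front of target genes. Interferon gamma acts through Ifngr1 and Ifngr2 at another element, the gamma-activated site (GAS). Irf1 is a classical target of that branch, and Irf7 amplifies the type I response. Ifit proteins bind viral RNA, and Ifitm3 hinders the entry of enveloped viruses at membranes. Class I heavy chains present intracellular peptides at the cell surface together with beta-2 microglobulin, the product of *B2m*. In the brain these genes are expressed by microglia and endothelium and, at lower levels, by neurons and astrocytes.

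To show the sequence in front of genes of each role, 180 bases before the RefSeq start site are printed for 6 of the genes, 5′ to 3′ on the strand of the gene (RefSeq start sites, mm9), with matches in capitals. The capitals mark the GAS pattern TTCNNNGAA in *Irf1*, the ISRE pattern (GAAA, any 2 bases and GAAA again) or its reverse complement in *Ifit1*, *Ifit3* and *B2m*, and, in *H2-K1* and *H2-D1*, first the kappaB site of enhancer A (GGGGA followed by TTCCC) and then a part of the class I interferon consensus sequence (TTTCA followed by CTTCT).
Irf1 (chr11:53583336-53583515, plus strand): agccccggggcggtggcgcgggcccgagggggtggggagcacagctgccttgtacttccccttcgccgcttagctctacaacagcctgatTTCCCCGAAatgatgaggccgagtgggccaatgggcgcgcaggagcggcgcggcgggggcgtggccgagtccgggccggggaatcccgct
Ifit1 (chr19:34715199-34715378, plus strand): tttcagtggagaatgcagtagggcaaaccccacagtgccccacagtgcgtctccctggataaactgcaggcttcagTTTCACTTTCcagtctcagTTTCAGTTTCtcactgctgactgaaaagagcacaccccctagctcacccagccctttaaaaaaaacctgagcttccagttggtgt
Ifit3 (chr19:34657839-34658018, plus strand): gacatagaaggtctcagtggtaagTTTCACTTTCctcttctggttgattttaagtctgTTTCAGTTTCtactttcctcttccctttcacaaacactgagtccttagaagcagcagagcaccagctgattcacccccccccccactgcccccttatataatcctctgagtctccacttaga
H2-K1 (chr17:34137279-34137458, minus strand): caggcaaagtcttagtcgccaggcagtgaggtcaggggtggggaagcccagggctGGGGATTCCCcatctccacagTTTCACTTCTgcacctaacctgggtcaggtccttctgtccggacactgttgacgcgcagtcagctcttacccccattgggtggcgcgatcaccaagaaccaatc
H2-D1 (chr17:35399859-35400038, plus strand): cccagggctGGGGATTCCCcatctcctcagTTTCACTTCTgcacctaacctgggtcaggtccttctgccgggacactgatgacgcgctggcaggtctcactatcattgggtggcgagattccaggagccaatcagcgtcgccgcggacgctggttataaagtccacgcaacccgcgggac
B2m (chr2:121973243-121973422, plus strand): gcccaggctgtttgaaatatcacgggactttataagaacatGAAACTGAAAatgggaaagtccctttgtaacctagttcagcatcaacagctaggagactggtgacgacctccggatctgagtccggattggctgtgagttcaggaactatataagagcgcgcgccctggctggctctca

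*Ifit1* holds the ISRE pattern at positions -104 to -95 and -85 to -76 from the start site, and *Ifit3* at -156 to -147 and -122 to -113. In both genes the first copy reads TTTCACTTTC and the second TTTCAGTTTC on the strand of the gene. *B2m* holds a copy on the gene's own strand at -139 to -130 (GAAACTGAAA). The patterns were searched on both strands of windows from 250 bases before to 50 bases after the start site. The ISRE pattern was found in 3.51% of 20267 such windows, and in 5 of the 9 genes. *Irf7* has it at -62 to -53, and *Ifitm3* has it behind the start site, at 3 to 12 and at 20 to 29. The GAS pattern was present in 7.74% of all windows. Among the 9 genes it occurs in *Irf1*, at -90 to -82, and in *Ifitm3*, at 14 to 22, where it overlaps the second ISRE match. The kappaB site is rare, with 0.128% of windows, and lies at -125 to -116 in *H2-K1* and at -171 to -162 in *H2-D1*. In both genes the part of the consensus sequence follows on the same strand, at -104 to -95 and at -150 to -141; this pattern, added after the sequences had been seen, is in 0.158% of windows. The *Stat2* window holds none of these letters. A match describes the sequence and is not evidence of binding.

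The levels of the 9 genes are given in CPM, the count of a transcript scaled by the effective total of its library. Library totals ran from 87695043 to 173116525 counts, so that 3 counts, the limit that a count of 0 allows, equal 0.0171 to 0.0347 CPM (counting error only). Every library lay above this limit in every gene, with 23 counts at the lowest. Compared per kilobase of transcript, *B2m* was the most abundant at 15.9 CPM per kb on average over the 12 libraries, followed by *H2-D1* at 3.73, *H2-K1* at 2.78 and *Ifitm3* at 2.11. *Stat2* stood at 0.878, *Ifit3* at 0.421, *Irf1* at 0.336, *Ifit1* at 0.221 and *Irf7* at 0.188 CPM per kb. The class I genes therefore rest on 321 to 2813 counts per library, whereas *Irf7*, *Ifit1* and *Ifit3* rest on 23 to 213. The tissue showed its labelled identity: the 11 markers of striatal spiny neurons summed to 1855 to 2624 CPM. A single library of the chronic unlesioned group held 487 CPM of choroid plexus markers, against 3.89 to 11.8 CPM in the other 11.

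**Figure D1:**
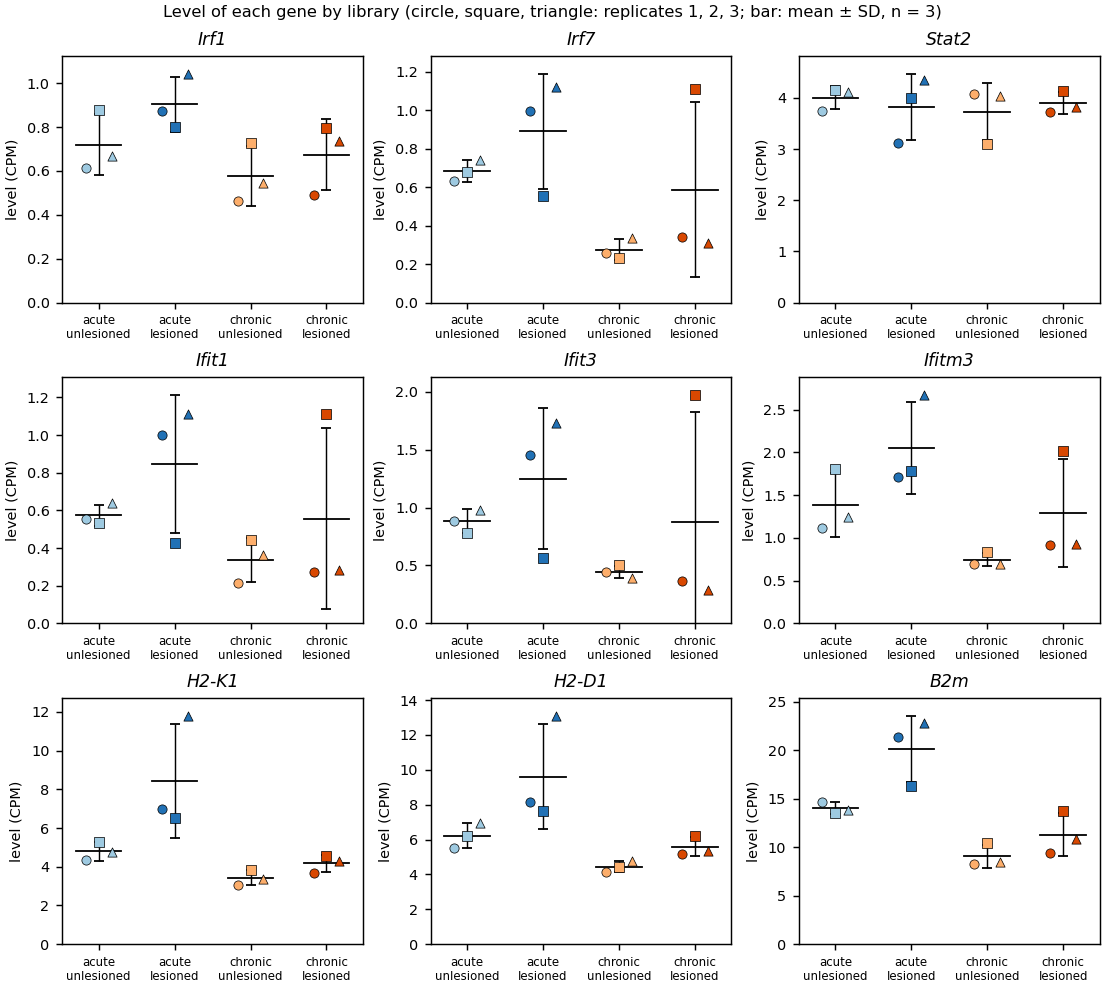
Level in CPM (y axis, from 0) of each of the 9 genes in the 12 libraries, by group (x axis). Circles, squares and triangles are replicates 1, 2 and 3 and the bar is the mean ± SD (n = 3), cut at 0 for *Ifit3*. In the chronic lesioned group, replicate 2 stands apart for *Irf7*, *Ifit1*, *Ifit3* and *Ifitm3*, whereas *Stat2* stays between 3.09 and 4.35 CPM throughout.

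The first comparison asked whether the genes differed between the lesioned and the unlesioned striatum after acute L-DOPA. The 3 class I genes were higher in the lesioned striatum, by 1.45 to 1.76 fold, while the transcription factors and the effectors did not pass the test. Thus 3 of the 9 genes were called, against a background of 15.3% of all 20402 genes tested (8.16% higher). The median log2 fold change of the 9 genes was 0.54, and that of all genes 0.015. *H2-K1* held 4.33, 5.30 and 4.75 CPM in unlesioned replicates 1, 2 and 3 and 6.97, 6.51 and 11.8 CPM in the lesioned ones. All lesioned libraries lay above all unlesioned ones, and replicate 3 was the highest. The fitted change was 0.82 on the log2 scale (standard error, SE, 0.18; adjusted p = 0.012, quasi-likelihood test of edgeR). *H2-D1* held 5.51, 6.19 and 6.96 CPM in the unlesioned and 8.14, 7.61 and 13.1 CPM in the lesioned striatum, a log2 fold change of 0.64 (SE 0.17, adjusted p = 0.0281). The groups did not overlap, and again replicate 3 of the lesioned group was well above the others. *B2m*, whose product is shared by all classical class I molecules, rose from 14.7, 13.5 and 13.8 CPM to 21.3, 16.3 and 22.8 CPM (log2 fold change 0.54, SE 0.10, adjusted p = 0.00571). Non-overlapping groups with higher lesioned libraries were found for these 3 genes, against 17.1% of all genes tested.

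Calls for the heavy chains depended on single libraries. Without replicate 1 or replicate 3 of the acute unlesioned group *B2m* alone was called, with adjusted p-values of 0.0555 and 0.052 for *H2-K1* and of 0.108 and 0.053 for *H2-D1*, and without replicate 2 of that group *H2-D1* had 0.0686. Without replicate 3 of the lesioned group the log2 fold changes were 0.50 and 0.35. DESeq2 gave *H2-D1* an adjusted p of 0.129.

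Microglia markers moved in the same direction in this comparison. Of 19 listed markers, 8 were higher in the lesioned striatum (4 without acute unlesioned replicate 2, 5 without acute lesioned replicate 1) and none was lower, with a median log2 fold change of 0.28. Their summed level was 155 to 163 CPM in the unlesioned and 174 to 210 CPM in the lesioned libraries, and none of the 19 was at the limit of 3 counts in all libraries. Their part in the class I result was not tested. In tissue of this kind more cells of a type and more RNA per cell cannot be told apart. Of 16 markers of lymphocytes and infiltrating myeloid cells, 7 had at most 3 counts in every library, among them *Cd3e*, *Cd3g*, *Cd3d*, *Cd79a*, *Ms4a1* and *Gzmb*, and 3 were tested. *Cd4* made up 96.2% of the summed level of the list, at 21.9 CPM on average, and was lower in the lesioned striatum (-0.41, SE 0.07, adjusted p = 0.00278). With *Cd3e*, *Cd3g* and *Cd3d* at most at 3 counts in every library, *Cd4* is not read here as a measure of T cells. The cell source of *Cd4* was not tested. *Ptprc*, at 0.501 CPM, had a log2 fold change of 0.26 (adjusted p = 0.427), and *Itgal*, at 0.126 CPM, of 0.82 (adjusted p = 0.254). Of 14 endothelial markers 1 was higher, as were 3 of 11 markers of mural cells and fibroblasts, 2 of 8 of astrocytes and 2 of 9 of oligodendrocytes. Over all genes 8.16% were higher, a share that the endothelial markers did not exceed. Markers of cortical glutamatergic neurons had negative log2 fold changes in 7 of 7 (median -1.35), of which *Neurod6* was called (-1.83, SE 0.54, adjusted p = 0.0438), and of 8 choroid plexus markers *Ttr* was lower (-2.01, SE 0.39, adjusted p = 0.00571). The other 5 choroid plexus markers tested were not called, with log2 fold changes of 0.00 to 2.26, and the median of the 6 was 0.69. The part of these in the class I result was not tested.

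The transcription factors and effectors had wider spreads. *Irf7* held 0.632, 0.677 and 0.742 CPM in the unlesioned and 0.993, 0.555 and 1.12 CPM in the lesioned libraries (log2 fold change 0.41, SE 0.21, adjusted p = 0.214). *Ifit1* held 0.553, 0.533 and 0.637 against 1.00, 0.428 and 1.11 CPM (0.60, SE 0.26, adjusted p = 0.149), and *Ifit3* 0.883, 0.778 and 0.982 against 1.45, 0.567 and 1.73 CPM (0.54, SE 0.28, adjusted p = 0.222). In all 3 genes replicate 2 of the lesioned group lay below every unlesioned library, and the other lesioned libraries lay above. This replicate was the lowest of its group in 7 of the 9 genes, where 30.2% of all genes had their lowest value there. The same held for 15 of the 19 microglia markers, whose sum was 174 CPM in this library and 210 and 195 CPM in replicates 1 and 3. Replicate 3 was the highest of the 6 acute libraries in all 9, where 21.8% did. Without lesioned replicate 2 the log2 fold changes were 0.63 for *Irf7* (adjusted p = 0.028), 0.88 for *Ifit1* (adjusted p = 0.00723) and 0.85 for *Ifit3* (adjusted p = 0.00708), and 6 of the 9 genes were called, where 5.83% of all genes were called higher. That library had the lowest total of the 12. Without lesioned replicate 3 the values moved the other way, to 0.23 for *Irf7* (adjusted p = 0.52), 0.38 for *Ifit1* (adjusted p = 0.383) and 0.26 for *Ifit3* (adjusted p = 0.578). *Ifitm3* held 1.11, 1.81 and 1.24 CPM in the unlesioned and 1.71, 1.78 and 2.67 CPM in the lesioned striatum, with a log2 fold change of 0.58 (SE 0.20, adjusted p = 0.0812). With the replicate number as a block, read as pairing the striata, 4 of the 9 genes were called, where 13.2% of all genes were higher. With that block the adjusted p of *Ifitm3* was 0.0189, and with DESeq2 it was 0.0344. Without unlesioned replicate 2 or lesioned replicate 1 *Ifitm3* had 0.0208 and 0.0452. Without lesioned replicate 3 its log2 fold change was 0.34 (adjusted p = 0.262). *Irf1* went from 0.72 ± 0.14 to 0.904 ± 0.13 CPM (SD, n = 3; adjusted p = 0.198). *Stat2* stood at 4.01 ± 0.22 and 3.82 ± 0.64 CPM (SD, n = 3), that is by a log2 difference of -0.07 (SE 0.11, adjusted p = 0.722).

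After chronic L-DOPA the same question was put to the striata of mice treated for 9 days. None of the 9 genes was called in edgeR, against a background of 13.7% of 19742 genes, although all 9 fitted log2 fold changes were positive (0.07 to 1.09, median 0.33; all genes -0.015). At an unadjusted p under 0.05 there were 5, and DESeq2 called *Ifitm3* alone. With the replicate number as a block, read as pairing the libraries, 4 were called higher, where 12.8% of all genes were. These were *Ifitm3*, with a log2 fold change of 0.74 (adjusted p = 0.0126), *H2-K1*, with 0.28 (adjusted p = 0.0298), *H2-D1*, with 0.33 (adjusted p = 0.0177), and *B2m*, with 0.31 (adjusted p = 0.00843). Without chronic lesioned replicate 2, in the fit without the block, the log2 fold changes of *Ifitm3* and *B2m* went from 0.80 and 0.32 to 0.33 and 0.17 (adjusted p = 0.275 and 0.419).

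After chronic L-DOPA the highest library of a group was 1.15 to 1.47 times the lowest in the class I genes. *H2-K1* held 3.08, 3.83 and 3.39 CPM in unlesioned replicates 1, 2 and 3 and 3.66, 4.55 and 4.30 CPM in the lesioned ones (log2 fold change 0.28, SE 0.12, adjusted p = 0.157 without the block). In each of the 3 numbered pairs the lesioned library was the higher, but the groups overlapped. *H2-D1* held 4.14, 4.43 and 4.77 against 5.20, 6.22 and 5.36 CPM (0.33, SE 0.10, adjusted p = 0.0621), with no overlap. *B2m* held 8.25, 10.4 and 8.46 against 9.37, 13.7 and 10.8 CPM (0.32, SE 0.14, adjusted p = 0.177). *H2-D1* and *Ifitm3* were the genes whose lesioned libraries all lay above the unlesioned ones, where 16.5% of all genes did so. Microglia markers had a median log2 fold change of 0.09, and 0 of 19 were called in edgeR and DESeq2 (2 had an unadjusted p under 0.05, and 3 were called with the block); their summed level was 104 to 132 CPM in the unlesioned and 109 to 141 CPM in the lesioned striatum. Of 8 astrocyte markers *Gfap*, a filament protein of reactive astrocytes, was higher, at 11.3 to 19.6 CPM in the unlesioned and 39 to 68.5 CPM in the lesioned libraries (1.96, SE 0.24, adjusted p = 0.000445), and of 11 markers of mural cells and fibroblasts *Tagln* (1.07, SE 0.11, adjusted p = 0.000114) and *Col1a1* (1.12, SE 0.22, adjusted p = 0.00908) were. Over all genes 8.46% were higher. Log2 fold changes were negative in 9 of 9 oligodendrocyte markers (median -0.22) and 5 of 6 of cortical glutamatergic neurons (median -1.58), none of them called. They were negative in 4 of 4 choroid plexus markers (median -1.85, 1 called lower) and positive in 12 of 14 endothelial ones (median 0.12, 0 called). The part of these cell types in the class I values was not tested.

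The effectors and *Irf7* were dominated by a single library of the chronic lesioned group, replicate 2. *Ifit3* held 0.442, 0.501 and 0.396 CPM in the unlesioned libraries and 0.364, 1.97 and 0.292 CPM in the lesioned ones. Replicate 2 was thus 6.76 times the lowest lesioned library, and the other lesioned libraries lay below all unlesioned ones. The log2 fold change was 0.99 (SE 0.59, adjusted p = 0.331) with all libraries and -0.44 without that replicate. *Ifit1* held 0.212, 0.442 and 0.363 against 0.273, 1.11 and 0.283 CPM (0.72, SE 0.50, adjusted p = 0.417), and its log2 fold change without that replicate was -0.28. *Irf7* held 0.258, 0.234 and 0.336 against 0.342, 1.11 and 0.310 CPM (1.09, SE 0.45, adjusted p = 0.156), with 0.24 without it. For *Ifitm3* the values were 0.700, 0.835 and 0.699 CPM in the unlesioned and 0.922, 2.02 and 0.930 CPM in the lesioned striatum (0.80, SE 0.28, adjusted p = 0.10). Here the remaining lesioned libraries also lay above all unlesioned ones, and the log2 fold change without replicate 2 was 0.33 (adjusted p = 0.275). *Irf1*, at 0.577 ± 0.14 and 0.674 ± 0.16 CPM, and *Stat2*, at 3.73 ± 0.56 and 3.9 ± 0.21 CPM (SD, n = 3), had adjusted p-values of 0.583 and 0.788.

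Replicate 2 of the chronic lesioned group stood apart across the wider interferon programme. Among the 6 chronic libraries it was the highest for each of the 9 genes, against 16.9% of the 19449 genes with at least 0.1 CPM. Of the listed interferon-stimulated genes with such a level, 29 of 34 had their highest chronic value there, all but *Xaf1*, *Adar*, *Samhd1*, *Ifitm1* and *Ifitm2*. It reached at least 2 times the next highest chronic library in 4 of the 9 genes and in 12 of the 34, against 0.375% of all genes. *Isg15*, a ubiquitin-like protein induced by interferon, held 2.33 CPM in this library and 0.239 and 0.264 CPM in the other lesioned ones. *Usp18*, the protease that removes Isg15 and restrains the receptor, held 0.777 against 0.148 and 0.182 CPM, and *Oasl2*, of the oligoadenylate synthetase family, 1.97 against 0.364 and 0.419 CPM. *Rsad2*, the antiviral enzyme viperin, held 1.01 against 0.216 and 0.137 CPM. These genes were named after their values were seen. It was the highest chronic library for 6 of 20 receptors and signalling genes, 10 of 14 genes of class I antigen processing, 1 of 8 class II genes and 6 of 19 microglia markers. The sum of the microglia markers in this library was 140 CPM, against 109 and 141 CPM in replicates 1 and 3, so that it did not stand apart, and its total count lay within the range of the others. Replicate 2 of the chronic unlesioned group, which shares its number and holds choroid plexus RNA, was the highest of its group for 6 of the 9 genes. For *Irf7* (0.234 CPM) and *Stat2* (3.09 CPM) it was the lowest, and the share over all genes is not given here. This library held 0.501 CPM of *Ifit3* and 0.142 CPM of *Isg15*. It also held 0.893 CPM of *Gbp3* against 0.405 and 0.423 CPM, and 0.551 CPM of *Cd74* against 0.138 and 0.148 CPM. The part of the choroid plexus RNA in these values was not tested.

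**Figure D2:**
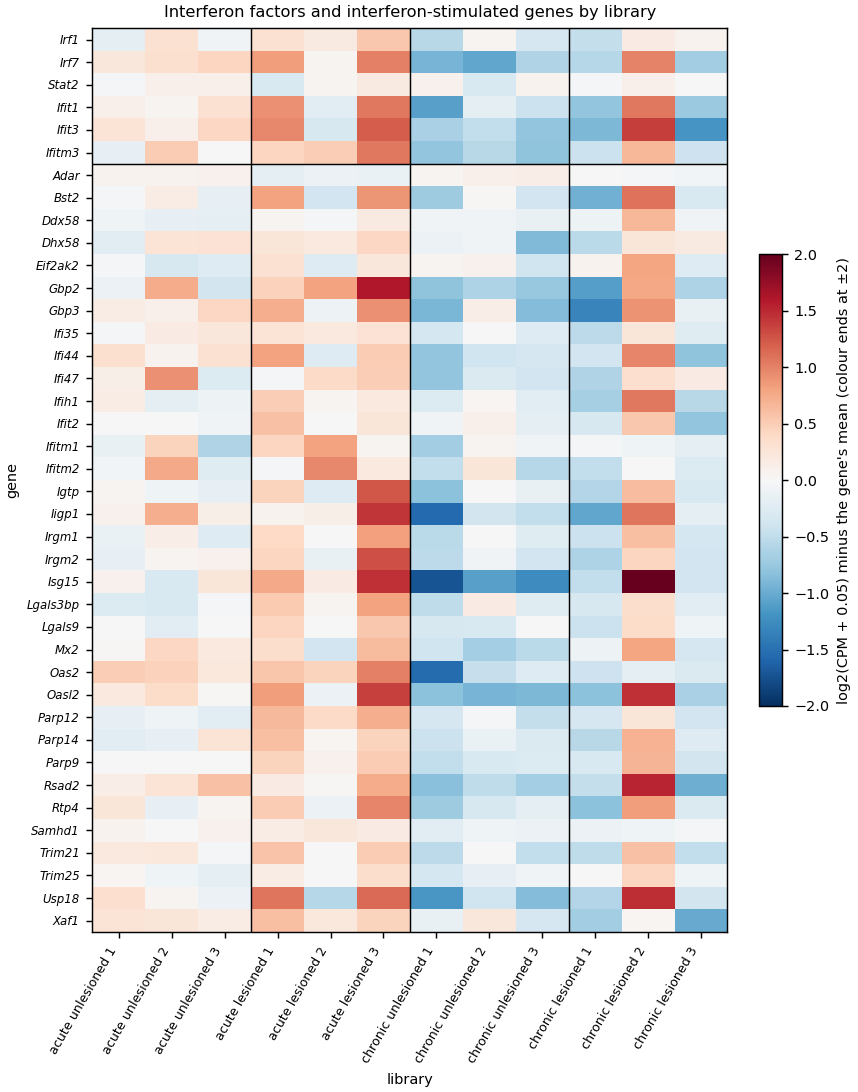
Colour gives log2(CPM + 0.05) minus the mean of the gene, for the 6 transcription factors and effectors (above the line) and the interferon-stimulated genes with at least 0.1 CPM (rows), in the 12 libraries (columns, 4 groups of 3). Replicate 2 of the chronic lesioned group is red in most rows beside 2 lower replicates of its group, and replicate 2 of the acute lesioned group was the lowest of its group in 27 of the 34 interferon-stimulated genes.

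In the lesioned striatum, chronic L-DOPA was compared with acute L-DOPA. The class I genes were lower after chronic treatment, at 0.496 to 0.583 of the acute level, and no gene of the set was called higher. Of the 9 genes 3 were called, against a background of 25.6% of 19790 genes (13.1% lower); the median log2 fold change was -0.61 and that of all genes -0.024. *H2-K1* fell from 8.41 ± 2.9 to 4.17 ± 0.46 CPM (SD, n = 3), that is by a log2 difference of -1.01 (SE 0.20, adjusted p = 0.00478, edgeR). *H2-D1* fell from 9.61 ± 3.0 to 5.6 ± 0.55 CPM (-0.78, SE 0.18, adjusted p = 0.0104), and without chronic lesioned replicate 1 its adjusted p was 0.0526. *B2m* fell from 20.2 ± 3.4 to 11.3 ± 2.2 CPM (-0.84, SE 0.15, adjusted p = 0.00287). Without acute lesioned replicate 3, the library with the highest class I levels, the log2 fold changes were -0.69 for *H2-K1* and -0.49 for *H2-D1*. The chronic libraries lay below all acute ones in these 3 genes and in *Irf1*, where 21.7% of all genes did. Microglia markers fell as well: 16 of 19 were lower (10 without acute lesioned replicate 1), with a median log2 fold change of -0.55 and summed levels of 109 to 141 after 174 to 210 CPM. All 9 oligodendrocyte markers were lower too (median -0.82, summed levels of 1212 to 2186 after 2195 to 3629 CPM), as were 4 of 5 blood markers (median -1.23), 5 of 11 markers of mural cells and fibroblasts (median -0.46), 4 of 8 of astrocytes (median -0.30) and 3 of 14 of endothelial cells (median -0.08); 1 marker of each of the last 3 lists was higher. The part of these cell types in the lower class I levels was not tested.

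For the factors and effectors this comparison turned on chronic lesioned replicate 2. With all 6 libraries the log2 fold changes were -0.60 for *Irf7* (SE 0.42, adjusted p = 0.328), -0.61 for *Ifit1* (SE 0.48, adjusted p = 0.387), -0.52 for *Ifit3* (SE 0.58, adjusted p = 0.559) and -0.66 for *Ifitm3* (SE 0.28, adjusted p = 0.112). Without that library all 4 passed the test, with -1.47, -1.63, -1.96 and -1.14 and adjusted p-values of 0.0025, 0.00458, 0.00258 and 0.00117. Without chronic lesioned replicate 3 the values lay nearer 0, at -0.28 for *Irf7* (adjusted p = 0.686), -0.28 for *Ifit1* (adjusted p = 0.738) and -0.09 for *Ifit3* (adjusted p = 0.935), and *Ifitm3* had -0.42 without acute lesioned replicate 3 (adjusted p = 0.343). Without chronic lesioned replicate 2 7 of the 9 genes were called lower, where 16.5% of all genes were, and 26 of the listed interferon-stimulated genes in place of 4. *Irf1* had a log2 fold change of -0.41 (SE 0.20, adjusted p = 0.152). *Stat2* had 0.04 (SE 0.12, adjusted p = 0.86), and its sign changed to -0.10 without acute lesioned replicate 1 and to -0.01 without chronic lesioned replicate 2.

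**Figure D3:**
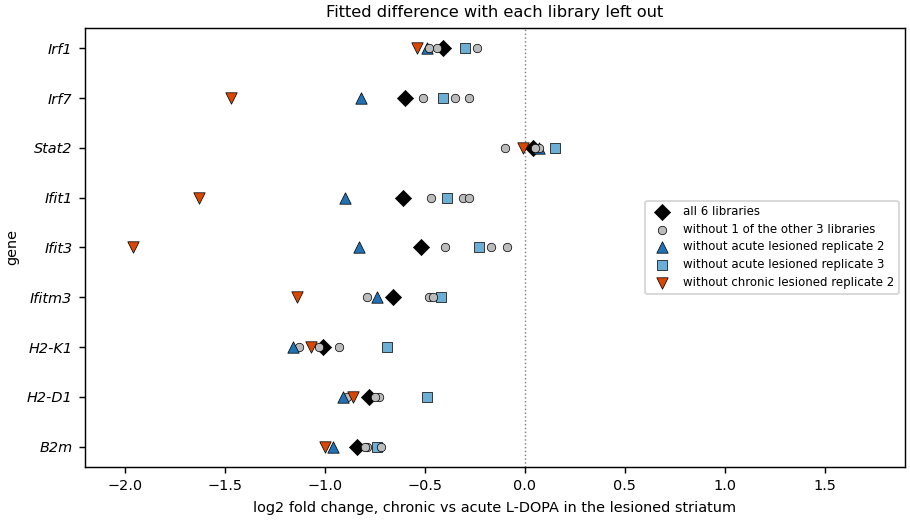
Fitted log2 fold change of chronic against acute L-DOPA in the lesioned striatum (x axis) for the 9 genes (y axis), with all 6 libraries (diamonds) and with each library left out. Without chronic lesioned replicate 2 (downward triangles) *Ifit3* moves from -0.52 to -1.96, whereas *H2-D1* moves from -0.78 to -0.86.

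The unlesioned striatum allowed the same comparison in tissue that keeps its dopamine input. Here 6 of the 9 genes were lower after chronic L-DOPA, against a background of 3.07% of 20290 genes (1.99% lower), with a median log2 fold change of -0.63 (all genes -0.004). *Irf7* fell from 0.684 ± 0.055 to 0.276 ± 0.053 CPM (SD, n = 3), that is by a log2 difference of -1.29 (SE 0.18, adjusted p = 0.0116). *Ifit3* fell from 0.881 ± 0.10 to 0.446 ± 0.052 CPM (-0.98, SE 0.16, adjusted p = 0.0173) and *Ifitm3* from 1.39 ± 0.38 to 0.745 ± 0.078 CPM (-0.89, SE 0.19, adjusted p = 0.0374). Among the class I genes, *H2-K1* fell from 4.79 ± 0.49 to 3.43 ± 0.38 CPM (-0.48, SE 0.11, adjusted p = 0.0423). *H2-D1* fell from 6.22 ± 0.73 to 4.45 ± 0.32 CPM (-0.48, SE 0.10, adjusted p = 0.0319) and *B2m* from 14 ± 0.63 to 9.04 ± 1.2 CPM (-0.63, SE 0.09, adjusted p = 0.0125). *Ifit1* went from 0.574 ± 0.055 to 0.339 ± 0.12 CPM without passing the test (-0.74, SE 0.23, adjusted p = 0.105), although its groups, like those of the 6 called genes, did not overlap. Such an order was found in 14.3% of all genes. *Irf1*, with -0.31 (SE 0.20), and *Stat2*, with -0.10 (SE 0.11), had adjusted p-values of 0.406 and 0.628.

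These calls were near the threshold and moved with the libraries in the fit. In 1 fit over all 12 libraries, with 1 estimate of the spread for all groups, *B2m* alone was called, where 2.18% of all genes were lower. The count over all genes moved as well, from 404 lower with all 6 libraries to 10 without acute unlesioned replicate 1 or replicate 2, 106 and 105 without acute unlesioned replicate 3 and chronic unlesioned replicate 1, 57 without chronic unlesioned replicate 3, and 1373 without chronic unlesioned replicate 2. Of the 9 genes none was called without acute unlesioned replicate 1 or replicate 2, 2 without acute unlesioned replicate 3 or chronic unlesioned replicate 1, 1 without chronic unlesioned replicate 3, and 7 without chronic unlesioned replicate 2, the library that holds choroid plexus RNA. Microglia markers fell here too, with 7 of 19 lower, where 1.99% of all genes were. Their median log2 fold change was -0.40, with summed levels of 104 to 132 after 155 to 163 CPM. None was called without any of the 3 acute unlesioned libraries in turn, and 2 without chronic unlesioned replicate 3. Of the other lists, 2 of 8 astrocyte markers (median -0.22) and 1 of 11 of mural cells and fibroblasts (median -0.32) were lower, and the log2 fold change was negative in 9 of 9 oligodendrocyte markers (median -0.19; 3 with an unadjusted p under 0.05) and 5 of 5 blood markers (median -0.76; 4 with an unadjusted p under 0.05), none of which passed the adjusted threshold in edgeR. The part of these cell types in the result was not tested. Acute and chronic treatment were given to separate mice, and no batch is given in the labels, so that treatment and other differences between these mice cannot be told apart.

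**Figure D4:**
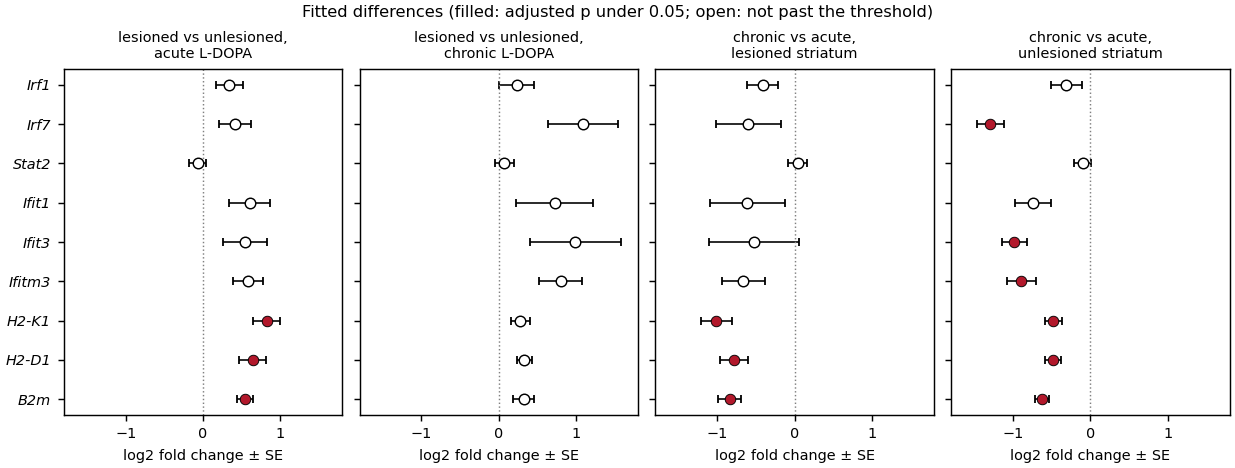
Log2 fold change ± SE (x axis) of the 9 genes (y axis) in the 4 comparisons of 2 groups; filled points passed an adjusted p of 0.05. The class I genes are filled in 3 of the 4 panels and the effectors only for chronic against acute L-DOPA in the unlesioned striatum, where *Ifit1* is unfilled.

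Whether the lesion effect itself differed between chronic and acute L-DOPA was tested as an interaction over all 12 libraries. None of the 9 genes was called, against a background of 5.1% of 20682 genes; none had an unadjusted p under 0.05 in edgeR, and DESeq2 called none. The fitted differences (chronic minus acute) of the class I genes were -0.53 for *H2-K1* (SE 0.25, adjusted p = 0.276), -0.30 for *H2-D1* (SE 0.23, adjusted p = 0.524) and -0.21 for *B2m* (SE 0.20, adjusted p = 0.613). This interaction was fitted without the block. The call of these genes, without the block, after acute and not after chronic L-DOPA therefore does not show a difference between the treatments. In no alternative, the block among them, was the difference called for the class I genes. Their lowest adjusted p over the alternatives was 0.114 for *H2-K1*, 0.218 for *H2-D1* and 0.0723 for *B2m*. The differences of the effectors had large errors, with 0.47 for *Ifit3* (SE 0.75) and 0.13 for *Ifit1* (SE 0.63). After acute lesioned replicate 2 and chronic lesioned replicate 2 had been left out together, a choice made after seeing the values, *Ifit3* had a difference of -1.29 (adjusted p = 0.0129).

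**Figure D5:**
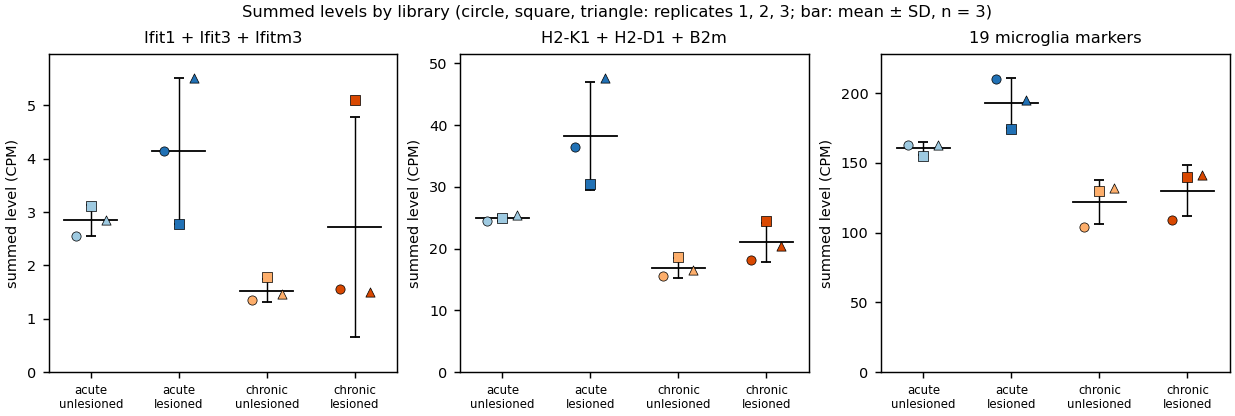
Summed level in CPM (y axes, from 0) of the 3 effectors, of the 3 class I genes and of 19 microglia markers in the 12 libraries, by group (x axis); symbols as replicates 1, 2 and 3 and bar as mean ± SD (n = 3). The effectors are split within each lesioned group, while microglia markers lie between 104 and 141 CPM in all chronic libraries and between 155 and 210 CPM in all acute ones.

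Other genes of the pathway were taken from 5 lists. Of 42 listed interferon-stimulated genes, 40 were in the table and 33 to 36 were tested in each comparison. After acute L-DOPA 2 were higher in the lesioned striatum and 1 was lower of 36 tested (median log2 fold change 0.38), a share below the 15.3% of all genes called in either direction. *Parp12*, an antiviral ADP-ribosyltransferase, rose by 0.77 (SE 0.11, adjusted p = 0.000845) and *Lgals3bp*, a secreted glycoprotein, by 0.72 (SE 0.16, adjusted p = 0.0113). *Adar*, the RNA-editing enzyme, fell by 0.21 (SE 0.05, adjusted p = 0.0235), a call lost with 5 of the 6 libraries left out in turn, all but acute lesioned replicate 3 (adjusted p of 0.0529 to 0.0827). *Lgals3bp* was lost without acute unlesioned replicate 1 (adjusted p = 0.0506). With the block 7 were higher, where 13.2% of all genes were, and without acute lesioned replicate 2 there were 11, where 5.83% were (1 without acute unlesioned replicate 1). After chronic L-DOPA *Isg15* alone of 33 tested was called, with a log2 fold change of 3.07 (SE 0.85, adjusted p = 0.0413). This share lies below the 8.46% of all genes higher. Chronic lesioned replicate 2 held 2.33 CPM, the other lesioned libraries 0.239 and 0.264 CPM and the unlesioned ones 0.0737 to 0.142 CPM. *Isg15* was named after its values were seen. No gene of the list was called without chronic lesioned replicate 2 or without any 1 of the 3 unlesioned replicates. In the lesioned striatum 4 of 35 tested were lower after chronic than after acute L-DOPA (median -0.40), a share below the 13.1% of all genes lower, among them *Parp12* with -0.74 (SE 0.17, adjusted p = 0.0114) and *Samhd1*, which depletes nucleotides in infected cells, with -0.26 (SE 0.09, adjusted p = 0.0498). The *Samhd1* call was lost without each of the 6 libraries in turn, with DESeq2 and its size factors, and with most other alternatives (adjusted p of 0.0518 to 0.221), and that of *Parp12* without chronic lesioned replicate 1 (adjusted p = 0.0549). None was called without chronic lesioned replicate 1, 26 without chronic lesioned replicate 2, and 2 without chronic lesioned replicate 3 or acute lesioned replicate 3. In the unlesioned striatum 3 of 34 tested were lower (median -0.35), where 1.99% of all genes were, namely *Isg15* with -1.68 (SE 0.28), *Oasl2* with -1.19 (SE 0.16) and *Rsad2* with -1.18 (SE 0.23). Without chronic unlesioned replicate 2 there were 8, without acute unlesioned replicate 1 or 2 none, and without any 1 of the other 3 libraries 1.

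The receptors and signalling genes came next. *Ifngr2*, the signalling subunit of the interferon gamma receptor, held 3.84, 3.73 and 4.28 CPM in the unlesioned and 4.56, 4.67 and 4.97 CPM in the lesioned striatum of the acute groups. In the chronic groups it held 4.48, 4.22 and 4.15 against 7.90, 7.87 and 8.04 CPM. The log2 fold changes were 0.26 (SE 0.08, adjusted p = 0.0445) and 0.89 (SE 0.08, adjusted p = 5.12e-05), and the difference of 0.63 between them also passed the test (SE 0.10, adjusted p = 0.00239). The acute call was lost with several alternatives (adjusted p up to 0.165), and the chronic call held in every alternative tried. *Jak2*, a kinase of that receptor, was higher on the lesioned side after chronic L-DOPA, by 0.50 (SE 0.08, adjusted p = 0.00355), and so was *Stat3*, by 0.40 (SE 0.09, adjusted p = 0.0173; 0.0676 without chronic lesioned replicate 3). Of the 20 genes of this list 1 was higher after acute L-DOPA, and 3 were higher and 1 lower after chronic L-DOPA, against 8.16% of all genes higher in the acute and 13.7% called in the chronic comparison. In chronic against acute L-DOPA in the lesioned striatum 3 were higher and 2 lower (5 lower without chronic lesioned replicate 2), a share near the 25.6% of all genes called. *Ifngr2* had 0.75 (SE 0.08), and *Irf3*, a transcription factor that viral sensors activate to induce interferon, -0.78 (SE 0.13, adjusted p = 0.00225). In the unlesioned striatum *Irf9*, the partner of Stat2, fell by 0.57 (SE 0.12, adjusted p = 0.0395) and *Irf3* by 0.51 (SE 0.09, adjusted p = 0.024). *Irf9* was lost in 7 alternatives, among them without acute unlesioned replicate 1 (adjusted p = 0.174) or 2 (0.154), without chronic unlesioned replicate 1 (0.103) or 3 (0.124) and in the fit of all 12 libraries (0.105). *Irf3* was lost without each library in turn except chronic unlesioned replicate 2 (adjusted p of 0.0605 to 0.119).

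Among 14 genes of class I peptide processing and loading, 1 was higher after acute and 1 after chronic L-DOPA, a share no higher than the 8.16% and 8.46% of all genes. Both times it was *Nlrc5*, the transactivator of class I genes, which rose by 1.31 (SE 0.36, adjusted p = 0.0348) and by 1.56 (SE 0.33, adjusted p = 0.0111) on the log2 scale. Its level was low, at 0.148, 0.115 and 0.127 CPM in the acute unlesioned and 0.197, 0.254 and 0.531 CPM in the acute lesioned libraries, and it was named after its values were seen. With the block 6 of the 14 were higher after acute L-DOPA, where 13.2% of all genes were, and without any 1 of the acute unlesioned replicates or without acute lesioned replicate 3 there was none. *Tapbp*, which holds empty class I molecules at the peptide transporter, and the chaperone *Calr* were lower in the chronic than in the acute lesioned striatum, with log2 fold changes of -0.44 (SE 0.14, adjusted p = 0.0421) and -0.36 (SE 0.11, adjusted p = 0.0377). These 2 of 14 are a share near the 13.1% of all genes lower. There were 6 without chronic lesioned replicate 2, where 16.5% of all genes were lower, and none without chronic replicate 1 or 3 or acute replicate 1 or 2. In the unlesioned striatum *Calr* was lower as well, as 1 of 14, where 1.99% of all genes were (-0.60, SE 0.10, adjusted p = 0.0196). That call was lost in several alternatives (adjusted p up to 0.116). Of 18 other heavy chains 11 were tested. *H2-T22* rose by 0.50 (SE 0.13, adjusted p = 0.0246) after acute L-DOPA, a call lost without acute unlesioned replicate 1 or 2 or acute lesioned replicate 3. In the lesioned striatum 3 of the 11 were lower after chronic L-DOPA, where 13.1% of all genes were, with -0.50 for *H2-T22* (SE 0.14), -0.69 for *H2-T23* (SE 0.23) and -0.36 for *Fcgrt*, the neonatal Fc receptor (SE 0.11). Each of these 3 calls was lost without at least 4 of the 6 libraries in turn. No class II gene was called in edgeR or DESeq2 between the striata, where 2 of 9 had an unadjusted p under 0.05 after acute and 0 of 8 after chronic L-DOPA (with acute lesioned replicate 1 left out 4 were called, with the block 2). *Cd74*, the invariant chain, was lower after chronic L-DOPA in the lesioned striatum (-2.16, SE 0.66, adjusted p = 0.0373), where acute replicate 3 held 2.19 CPM and the other acute libraries 0.341 and 0.405 CPM. No class II gene was called there without acute replicate 3 or without chronic replicate 1 or 3, and 4 were without acute replicate 1.

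The genes whose profile over the 12 libraries was closest to each set were found by the root mean square difference of centred log2(CPM + 0.05) values, among 12789 genes with at least 1 CPM. For *H2-K1*, *H2-D1* and *B2m* these were *C1qa*, a complement gene and microglia marker, at 0.135, LOC100502870 at 0.144 and *Phkg1* at 0.17, where the median gene lay at 0.491. LOC100502870 overlaps *H2-K1* on the opposite strand, so that the same reads may be counted for both. For *Ifit1*, *Ifit3* and *Ifitm3* the closest genes included the GTPase *Irgm1* at 0.344 and *Ddo* at 0.349 (median 0.698), and for *Irf1*, *Irf7* and *Stat2* they were *Gpc2* at 0.113, AK138897 at 0.121 and the guanylate-binding *Gbp6* at 0.146 (median 0.378). All genes are read from the same 12 libraries, with their depth and dissection, so these are descriptions.

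The position of each representative transcript is given on mm9. *H2-K1* (AK150790, 6 exons) lies on chromosome 17 from 34132963 to 34137228 on the minus strand and *H2-D1* (NM_010380, 8 exons) on the same chromosome from 35400039 to 35404442 on the plus strand. *H2-Q6*, as the table places it, overlaps *H2-D1* on the same strand, so that its count is uncertain whether or not strand was used, and 5430410E06Rik overlaps it on the opposite strand. *B2m* (NM_009735, 4 exons) lies on chromosome 2 from 121973423 to 121978818, and *Patl2* overlaps it on the opposite strand. *Ifit3* (AK153226, 2 exons) and *Ifit1* (AK144230, 3 exons) are neighbours on chromosome 19, from 34658019 to 34663526 and from 34715377 to 34724499, and Gm14446 overlaps *Ifit1* on the opposite strand. *Ifitm3* (NM_025378, 2 exons) and *Irf7* lie on chromosome 7, from 148195489 to 148196643 and from 148449083 to 148452322. The *Irf7* transcript, AK155950, is a clone of 1 exon that spans introns of the gene, so its count can include unspliced RNA. *Irf1* (NM_008390, 10 exons) lies on chromosome 11 from 53583516 to 53590826 and *Stat2* (24 exons) on chromosome 10 from 127707632 to 127729905. Whether the counting used the strand is not given in the sources used here.

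The other transcripts of the class I genes moved in the same direction as the representative ones. All 14 transcripts of the class I genes were called higher after acute L-DOPA (log2 fold changes of 0.65 to 0.83 for *H2-K1*, 0.60 to 0.64 for *H2-D1* and 0.52 to 0.54 for *B2m*) and lower in the chronic than in the acute lesioned striatum. They share reads and are not independent. In the unlesioned striatum 3 of 6 *H2-K1*, 4 of 4 *H2-D1* and 3 of 4 *B2m* transcripts were lower after chronic than after acute L-DOPA. Between the striata after chronic L-DOPA the *B2m* transcripts ran from 0.11 to 0.32, and 0 were called. The 18 transcripts of *Irf7* spread more widely, from -0.01 to 0.97 after acute L-DOPA, and 14 of them were lower after chronic L-DOPA in the unlesioned striatum. Near-identical copies make some counts uncertain: 51.5% of the 50-base windows of *Ifit3* also occur in I830012O16Rik, 12.8% of those of *H2-D1* and 7.29% of those of *H2-K1* occur in other class I genes, 7.13% of those of *Ifit1* and 10% of those of *Ifitm3* in their relatives, and none of those of *B2m*, *Irf1*, *Irf7* and *Stat2*. I830012O16Rik had a log2 fold change of 0.57 (SE 0.23, adjusted p = 0.134) after acute L-DOPA and of -0.70 (SE 0.55, adjusted p = 0.391) for chronic against acute L-DOPA in the lesioned striatum.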

How the data were processed

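The authors sequenced striatal RNA and deposited raw counts per transcript on mm9, with a gene symbol where known; the submitters' processing notes name DESeq. Reads had been mapped with the Genomatix Mining Station; the use of strand is not given in the sources used here. Further deposited tables give p-values and fold changes of the authors' own comparisons; neither these nor 48 columns of per-sample values were used. Transcripts naming no gene (296, with 0.0485% of counts) were left out. Library totals were 87695043 to 173116525 counts.

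Each comparison of 2 groups was fitted on its 6 libraries over all transcripts (edgeR 4.0.16, R 4.3.3; filterByExpr, TMM, quasi-likelihood test, Benjamini-Hochberg adjusted p under 0.05 over all transcripts tested); the difference of the lesion effects was an interaction over 12 libraries. The standard error is the log2 fold change over the square root of F. With 3 libraries against 3, an exact permutation test cannot go below 0.10, so none was run. The p-values measure the spread among these libraries. CPM used TMM-scaled totals. The code was tested on simulated data.

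The members and lists were chosen with earlier results of these data known. Genes of the lists were named as the up to 3 called genes per list and comparison with the largest change and a mean of at least 1 CPM; other genes of the lists, and single cell type markers that are not at or near 0, were named after their values were seen. Alternatives were DESeq2 1.42.0 and its size factors, no filter, the RefSeq transcript, the top transcript alone, summed transcripts, all 12 libraries, a stricter threshold of 0.01, the replicate block and each library left out.

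Same-numbered striata deviated together (r over 12794 genes of 0.478, 0.444 and 0.39 after acute and 0.519, 0.566 and 0.153 after chronic L-DOPA). Striata of different numbers had r of -0.321 to -0.109 after acute and of -0.516 to 0.155 after chronic L-DOPA. The numbers were therefore read as pairing the hemispheres, as the study's use of each mouse as its own control implies. Pair 3 of the chronic groups does not show this, and the labels count 12 mice. A shared mouse and a shared batch cannot be told apart here. Between same-numbered libraries of the acute and chronic groups r ran from -0.163 to 0.249, and the numbers do not pair those libraries. No 2 replicates of a group agreed within sampling noise; pairs across groups were not compared. Figures were drawn with matplotlib 3.10.9. Some genes of the lists are not reported here by name.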

Additional observations from a re-analysis of the deposited data

Results flagged for a closer look

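*Ifngr2*, the signalling subunit of the interferon gamma receptor, had a lesion effect that differed between the treatments: the log2 fold change after chronic L-DOPA exceeded that after acute L-DOPA by 0.63 (standard error 0.10, adjusted p = 0.00239 from the edgeR interaction term). All 3 chronic lesioned libraries (7.87 to 8.04 CPM) lay above all others (3.73 to 4.97 CPM). The difference was 0.57 to 0.67 with any 1 library left out and passed the threshold each time.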

How the results depend on the processing

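Counts of the 9 genes called moved as follows. With an adjusted p under 0.01, 1 was higher after acute L-DOPA and 0 were lower in the unlesioned striatum. Over all genes 790 of 20402 and 16 of 20290 were. After chronic L-DOPA 1 was higher with DESeq2, where 1684 of 19742 genes were. With the replicate block, read as pairing the hemispheres, 4 were higher, where 12.8% of all genes were. The block also called *Ifitm3* after acute L-DOPA. For chronic against acute L-DOPA in the unlesioned striatum 3 of the 9 were lower with summed transcripts, where 67 of 21470 genes were. In the fit of all 12 libraries 1 was lower, where 2.18% of all genes were. With 1 library left out, the count ranged from 1 to 6 after acute L-DOPA, from 0 to 0 after chronic L-DOPA, from 2 to 7 in the lesioned and from 0 to 7 in the unlesioned striatum. Counts over all genes, of 20102 to 20920 tested, moved as well. They ranged from 1068 to 1570 higher after acute and from 1144 to 1723 higher after chronic L-DOPA. For chronic against acute L-DOPA 1310 to 3342 were lower in the lesioned and 10 to 1373 in the unlesioned striatum. Without both acute lesioned replicate 2 and chronic lesioned replicate 2, chosen after seeing the data, 7 of the 9 were lower in the lesioned striatum. In that setting 1 had a lower difference of the lesion effects. Over all genes 2435 of 19973 and 401 of 21243 did so.

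Signs changed with single libraries left out. The ranges were, for *Stat2*, -0.18 to 0.07 after acute L-DOPA, -0.05 to 0.13 after chronic L-DOPA, -0.10 to 0.15 in the lesioned striatum (-0.01 without chronic lesioned replicate 2) and -0.16 to 0.01 in the unlesioned striatum. After chronic L-DOPA they were -0.28 to 1.05 for *Ifit1* and -0.44 to 1.42 for *Ifit3*. For the difference of the lesion effects they were -0.26 to 0.09 for *Irf1* (with 0.01 and 0.07 in between), -0.17 to 1.00 for *Irf7*, -0.88 to 0.46 for *Ifit1* (with -0.16 and -0.09 in between), -0.97 to 0.89 for *Ifit3* and -0.25 to 0.47 for *Ifitm3* (with -0.00 in between). Without both libraries named above the differences were -0.40 for *Irf7*, -1.17 for *Ifit1*, -1.29 for *Ifit3* and -0.33 for *Ifitm3*. The cause was not tested. Of 324 values of the 9 genes with 1 library left out, 265 kept direction and side of the threshold, as did 378 of 414 under the other alternatives.

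The main limits are 3 libraries per group, low counts of *Irf7*, *Ifit1* and *Ifit3*, sequence shared with related genes, and that no group without L-DOPA was analysed here.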
